A study of Mus musculus with 2 samples.

Results

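The immediate early and dissociation response genes are described here as a set of 40 mouse genes, taken by symbol from a fixed list out of the 31053 genes in the gene tables. The list was not chosen by a rule on measured values, but earlier results of these data were known when it was chosen. All 40 symbols were found in both tables. The cells came from mouse hearts taken at E12.5 (midgestation), dissociated with TrypLE, a trypsin-like enzyme, and profiled by droplet single-cell RNA sequencing. The control library had the genotype Tbx18-Cre; YFP/+ and the mutant library Tbx18-Cre; Prmt1 fl/fl;YFP/+. Both thus carried the Cre driver and the YFP reporter, and the mutant added floxed alleles of Prmt1, the main asymmetric protein arginine methyltransferase. The Cre is driven by Tbx18, a gene of the epicardium (the sheet of cells that covers the heart), and the series presents the deletion as specific to that layer. With 1 library for each genotype, no difference below has a replicate check or a test. Intervals are exact, at 95%, and reflect counting error alone.

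Immediate early genes are switched on within minutes of a stimulus, without new protein synthesis, by kinases that act on factors already bound at their promoters. Many encode transcription factors such as the Fos and Jun subunits of AP-1, and others encode the phosphatases and RNA-binding proteins that shut the response off again. Enzymatic dissociation of a tissue is itself such a stimulus, and these genes are a known mark of it in single-cell data. In the developing heart some of them also have standing roles, for example Klf2, a factor that endothelial cells make under blood flow.

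Promoter sequences of 4 members are shown because each holds the core of the cyclic AMP response element, an element bound by the CREB and ATF factors through which immediate early genes are known to be induced. They are RefSeq sequences of build GRCm38.p6 that cover the 250 bases before the start site, written 5' to 3' on the strand of the gene. Fos lies at chr12:85473640-85473889 on the plus strand, Atf3 at chr1:191183334-191183583, Btg2 at chr1:134079156-134079405 and Dusp1 at chr17:26508473-26508722, the last 3 on the minus strand. Capitals mark TGACGT on either strand (which reads ACGTCA on the other) and, in Fos, TATAAA.
Fos: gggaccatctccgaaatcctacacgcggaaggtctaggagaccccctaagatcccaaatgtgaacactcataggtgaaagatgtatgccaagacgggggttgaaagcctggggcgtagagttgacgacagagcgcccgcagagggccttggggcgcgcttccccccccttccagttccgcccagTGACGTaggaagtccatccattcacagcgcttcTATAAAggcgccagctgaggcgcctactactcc
Atf3: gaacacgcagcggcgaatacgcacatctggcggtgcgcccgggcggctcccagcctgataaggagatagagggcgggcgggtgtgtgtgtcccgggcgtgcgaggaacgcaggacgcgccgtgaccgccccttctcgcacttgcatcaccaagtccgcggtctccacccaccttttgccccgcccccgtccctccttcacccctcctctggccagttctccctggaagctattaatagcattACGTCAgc
Btg2: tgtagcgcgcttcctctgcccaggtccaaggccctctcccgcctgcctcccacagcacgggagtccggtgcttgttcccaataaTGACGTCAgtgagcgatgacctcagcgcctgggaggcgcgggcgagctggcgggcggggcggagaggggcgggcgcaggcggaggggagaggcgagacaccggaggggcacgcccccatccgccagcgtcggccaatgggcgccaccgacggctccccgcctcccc
Dusp1: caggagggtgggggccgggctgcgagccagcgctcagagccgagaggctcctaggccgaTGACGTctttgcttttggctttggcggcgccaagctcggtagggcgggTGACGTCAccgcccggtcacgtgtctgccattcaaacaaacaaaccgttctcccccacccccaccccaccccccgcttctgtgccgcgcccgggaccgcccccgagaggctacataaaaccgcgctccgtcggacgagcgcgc

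Windows of 250 bases before to 50 after the start site were found for 32 of the 40 members, with Cyr61 matched under its newer name Ccn1. Fosl1, Egr1, Egr3, Ier2, Klf10, Nfkbiz, Myc and Cebpd had no window and were not searched. For the others, sites outside the windows were not searched. TGACGT on either strand was in 8 of the 32 (25%), namely Fos, Atf3, Egr2, Btg1, Btg2, Dusp1, Maff and Cyr61, against 8.37% of the 27025 genes with a window in the table. A gene was counted once if any of its windows held the motif, for members and all genes alike. The full palindrome TGACGTCA, which holds that core on both strands, was in Btg2, Dusp1 and Maff (9.4%, against 2.03% of all genes). GCGNGGGCG, the site of the EGR factors, was in 12 members (37.5% against 6.27%), and an NF-kappa-B site in 7 members (21.9% against 5.14%), Nfkbia among them. A CArG box, the site of serum response factor, was in Egr2 and Zfp36 (6.2% against 1.81%). TGANTCA, the AP-1 site, was in Zfp36l1 and Csrnp1 (6.2% against 8.97%). TATAAA, searched on the gene's strand alone, was in 8 members (25% against 9.77%). A match is a match of letters and was not tied to binding in these cells.

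Cells were assigned to gates by marker genes that hold no member of the set. After filtering, 4100 control and 4640 mutant cells remained, with a median of 5896.5 and 4046 unique molecular identifiers (UMIs, 1 per captured RNA molecule) per cell. The epicardial gate held 257 control and 440 mutant cells, with a median of 2307 and 2651.5 UMIs per cell. The gate of mesenchymal cells with Tcf21, a factor of the fibroblast lineage, held 280 and 421 cells, and that of cushion mesenchymal cells, which form the valves, 200 and 275. There were 218 and 299 endothelial cells, 70 and 70 macrophages, and 2064 and 1593 cardiomyocytes. In each of these 6 gates the median mutant cell was deeper, and macrophages had the widest relative gap (2700.5 UMIs in the control and 4199 in the mutant). Marker lists of other cell types were present in some gates. In the epicardial gate the 7 Tcf21 mesenchymal markers, collagens among them, took 61.9 of 10000 UMIs in the control and 55.6 in the mutant, more than the 12 epicardial markers (32.8 and 25.8), while the 8 cushion markers took 1.72 and 1.62. In the cushion gate the Tcf21 list, Tcf21 itself at 0, took 28.2 and 23.4 beside 56.2 and 48.4 for the cushion list. The Tcf21 gate had 64.7 and 49.9 for its own list and 4.7 and 6.86 for the cushion list. A gate's own markers took 269 in control and 191 in mutant macrophages, 27.7 and 29.5 in endothelial cells and 736 and 721 in cardiomyocytes. The part of these marker differences in the results was not tested. Endothelial and macrophage markers took at most 1.32 of 10000 UMIs outside their own gates, and between 7 and 10 of the 12 macrophage markers were at 0 in the epicardial, mesenchymal and endothelial gates of each library. In the epicardial gate the 15 cardiomyocyte markers took 57.6 and 63.6 of 10000 UMIs, but 2.98 and 2.86 without Myl7 and Tnni1, and their part in the results was not tested. Prmt1 had a ratio of mutant over control of 0.848 (0.748 to 0.962) in the epicardial gate, 0.908 in the Tcf21 gate, 1.13 in cushion cells, 1.12 in endothelial cells, 1.66 in macrophages and 1.19 in cardiomyocytes. These counts come from 3' ends and do not check the deletion. The libraries shared 8 of the kept barcodes.

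The summed share of the 40 members was lower in the mutant library in the epicardial, Tcf21 mesenchymal and macrophage gates, higher in the cushion and endothelial gates, and close to the control in cardiomyocytes. In the epicardial gate members took 0.562% of UMIs in the control and 0.335% in the mutant, with a ratio of 0.596 (0.574 to 0.620). In macrophages they took 1.27% and 0.813%, with a ratio of 0.642 (0.610 to 0.675). In Tcf21 mesenchymal cells the shares were 0.476% and 0.348%, with a ratio of 0.730 (0.696 to 0.765). The direction in this gate depended on where the gate was drawn. With doubled marker thresholds the log2 ratio was 0.08 in place of -0.45, and with the 155 control and 335 mutant cells that met both mesenchymal gates counted in, it was 0.17.

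Cushion mesenchymal cells had 0.484% in the control and 0.675% in the mutant, with a ratio of 1.39 (1.32 to 1.47). Endothelial cells had 0.836% and 0.974%, with a ratio of 1.16 (1.135 to 1.19). The macrophage markers also took more of the endothelial UMIs in the mutant, 0.214 of 10000 in the control and 1.08 in the mutant, with C1qa, C1qc, Ptprc, Cx3cr1, Lyz2 and Fcrls at 0 in both, and their part in the result was not tested. Cardiomyocytes had 0.194% and 0.181%, with a ratio of 0.930 (0.919 to 0.941). Macrophages were the highest gate of the control. In the mutant, endothelial cells were highest by the summed share, but not without Klf2, when they had 0.5001% against 0.643% in macrophages, nor by the median of single cells. The medians of single cells had the same direction as the ratio of the summed share in all 6 gates. They were 0.407% and 0.279% in epicardial cells, 0.335% and 0.302% in Tcf21 mesenchymal cells, 0.370% and 0.510% in cushion cells, 0.418% and 0.562% in endothelial cells, 1.16% and 0.720% in macrophages, and 0.132% and 0.123% in cardiomyocytes. The spread over cells within a gate was wider than the distance between libraries, as the plot of the share per cell shows.

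**Figure D1:**
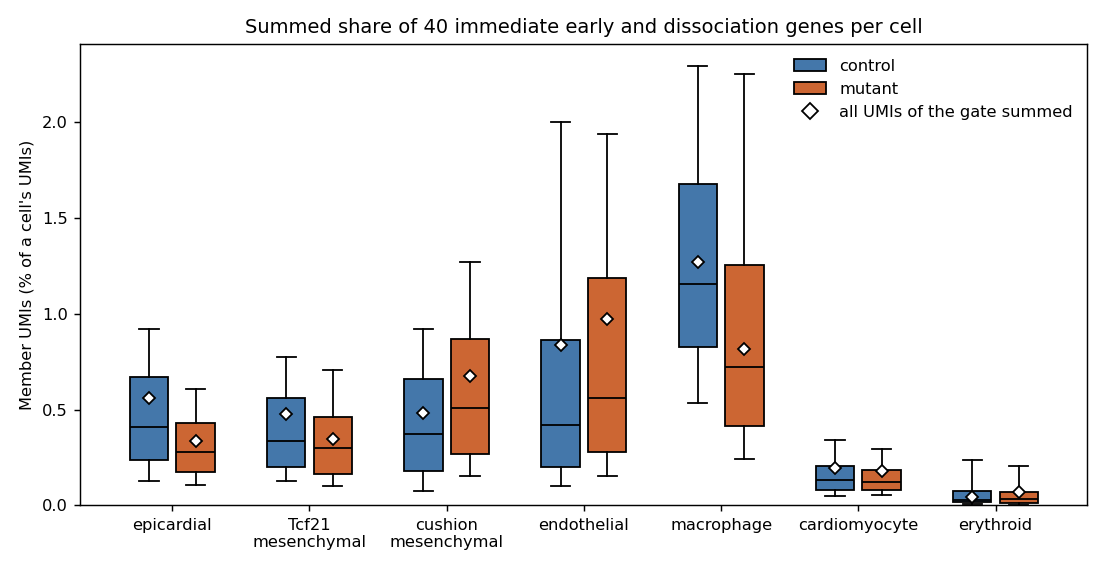
Summed share of the 40 members in percent of the UMIs of each cell (vertical axis), by gate (horizontal axis), control in blue and mutant in orange. Boxes span the middle quartiles with the median as a line, whiskers run from the 10th to the 90th percentile of cells, and diamonds give the share over all UMIs of the gate. Medians were lower in the mutant in epicardial cells (0.407% and 0.279%) and macrophages (1.16% and 0.720%) and higher in cushion (0.370% and 0.510%) and endothelial cells (0.418% and 0.562%), with broad overlap of cells throughout.

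Free RNA in droplets was looked at in barcodes with few UMIs, and its part in the shares of the gates was not tested. In the control, cardiomyocyte markers took 410 of 10000 UMIs in these barcodes and 736 in the cardiomyocyte gate. In 535033 control barcodes with at most 100 UMIs, too few to be kept as cells, members took 0.206% of UMIs (0.199% to 0.213%), near the share of the cardiomyocyte gate. Erythroid cells, whose own RNA is mostly haemoglobin, had 0.0442% in the control and 0.0696% in the mutant, with haemoglobin at 80.2% and 72.2% of their UMIs. The mutant matrix held no barcodes under 500 UMIs, so its free RNA could not be measured the same way.

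Split by depth, the difference did not hold in every range. In the epicardial gate the share was lower in the mutant in cells of 1000 to 2000 UMIs (0.467% and 0.343%), of 2000 to 5000 UMIs (0.468% and 0.308%) and above 5000 UMIs (0.678% and 0.375%). In cushion cells it was higher in the mutant in each range, with 0.445% and 0.649% in the shallowest. Tcf21 mesenchymal cells had 0.458% and 0.430% in the shallowest range, and 5 control cells above 5000 UMIs had 1.20% against 0.359% in 30 mutant cells. Without cells above 5000 UMIs the log2 ratio of this gate was -0.24. Endothelial cells of 1000 to 2000 UMIs went the other way (0.787% and 0.679%), while those of 2000 to 5000 UMIs had 0.630% and 0.852%. Macrophages of 1000 to 2000 UMIs had 1.77% in 16 control cells and 1.19% in 3 mutant cells. Those of 2000 to 5000 UMIs had nearly the same share (1.11% and 1.07%, 44 cells each). Above 5000 UMIs 10 control macrophages had 1.37% and 23 mutant ones 0.613%. The log2 ratio of the macrophage gate was -0.18 without cells above 5000 UMIs, in place of -0.64. Cardiomyocytes of 1000 to 2000 UMIs went the other way from their gate, with 0.132% in 35 control cells and 0.142% in 26 mutant cells. Those of 2000 to 5000 UMIs had 0.172% and 0.165%, and those above 5000 UMIs 0.195% and 0.181%.

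Counted gene by gene, with levels in CPM (the UMIs of a gene scaled to 1000000 UMIs of its gate), a member was taken as measured at 10 CPM or more on average, and as higher or lower past 1.5-fold with 10 added to both levels. In epicardial cells 16 of 33 measured members were lower and 0 higher, where 5.43% of all genes measured there were lower and 1.83% higher, and the members' median log2 ratio was -0.58 against -0.049 over all genes. In macrophages 21 of 34 were lower and 0 higher (14.5% and 16.3% of all genes), with a median of -0.98 against 0.030. In Tcf21 mesenchymal cells 10 of 31 were lower and 2 higher (3.58% and 7.48% of all genes), with a median of -0.11 against 0.044.

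In cushion cells 10 of 33 were higher and 5 lower, where 7.58% of all genes were higher and 10.1% lower, with a median of 0.21 against -0.013. In endothelial cells 7 of 32 were higher and 0 lower (6.18% and 1.44% of all genes), with a median of 0.22 against 0.053. In cardiomyocytes 0 of 23 were higher and 1, Egr1, was lower (0.297% and 0.39% of all genes), with a median of -0.15 against 0.012. The set did not have 1 direction over the gates: 12 of the 35 members measured in several gates (34.3%) were higher in 1 gate or more and lower in another, against 4.92% of all 7260 genes so measured. They were Fos, Fosb, Fosl2, Jun, Atf3, Egr1, Ier5, Klf4, Klf10, Dusp1, Nfkbia and Rhob. For Fosl2 the calls rested on 3 and 14 UMIs in cushion cells and 6 and 2 in macrophages, and both ratio intervals reached across 1. Without the Tcf21 gate, 10 of 34 members (29.4%) and 3.69% of all genes were called both ways, and Nfkbia and Ier5 were not among them. Fosl1, Egr3 and Nr4a2 did not reach 10 CPM in any gate, and 22 members were measured in all 6.

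**Figure D2:**
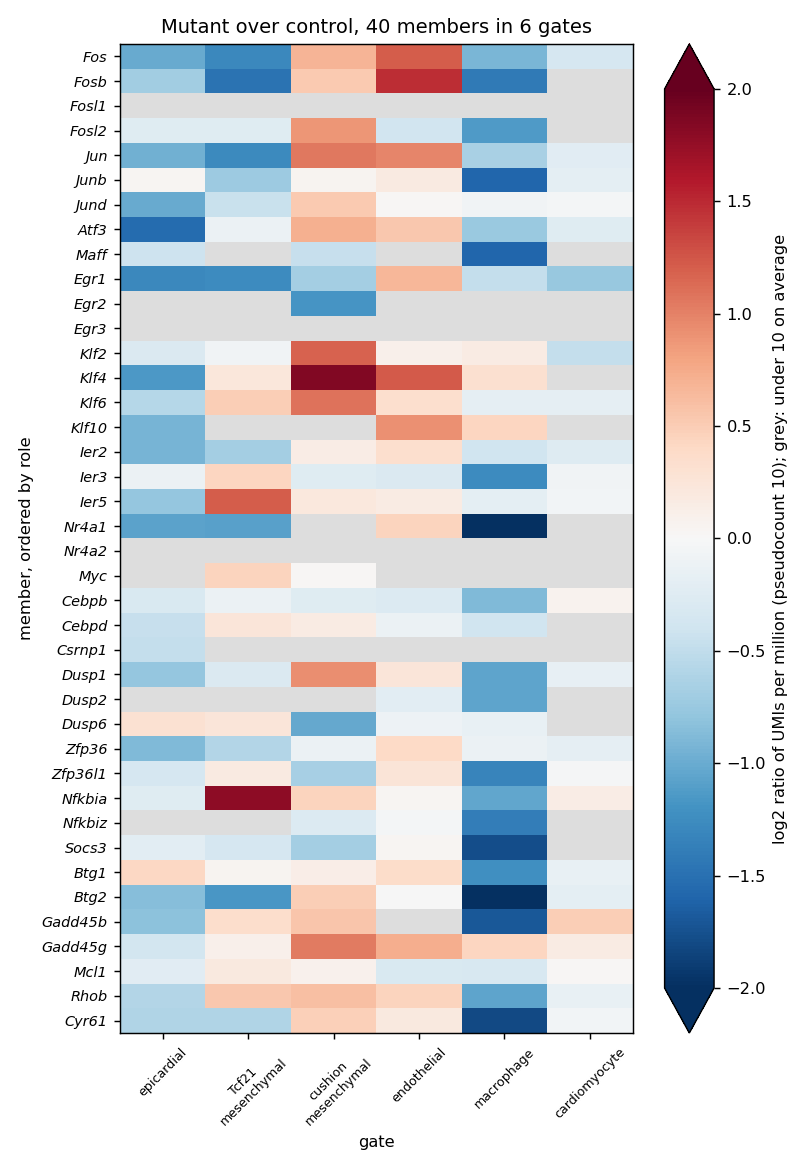
Log2 ratio of mutant over control CPM (colour, with a pseudocount of 10) for the 40 members (rows, ordered by role) in the 6 gates (columns). Blue is lower and red higher in the mutant, grey marks members under 10 CPM on average. The epicardial column has 30 of 33 measured members below 0 and the macrophage column 30 of 34. Over all genes measured there, 3844 of 6816 and 2875 of 5923 were below 0. The cushion column has 23 of 33 and the endothelial column 23 of 32 above 0, where 3164 of 6508 and 3639 of 6407 of all genes were above 0.

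The AP-1 subunits and their partners were the role group with the lowest ratio in epicardial cells. AP-1 is a dimer of a Fos and a Jun protein that binds DNA at many induced genes. Summed over the 9 genes, they stood at 1983 CPM in the control and 928 in the mutant in the epicardial gate, with a ratio of 0.468 (0.437 to 0.502). The same sum had a ratio of 0.561 (0.511 to 0.617) in Tcf21 mesenchymal cells and 0.595 (0.539 to 0.658) in macrophages. It was above 1 in cushion cells, at 1.56 (1.42 to 1.73), and in endothelial cells, at 1.37 (1.29 to 1.45).

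Fos (ENSMUSG00000021250; chromosome 12, 85473890 to 85477273 in GRCm38), the inducible partner of Jun, stood at 396 CPM in the control and 192 in the mutant in epicardial cells, from 356 and 305 UMIs. It stood at 368 and 145 in Tcf21 mesenchymal cells and at 488 and 253 in macrophages. Its level was higher in the mutant in cushion cells (439 and 714) and in endothelial cells (119 and 289). The intervals of these levels did not overlap between control and mutant in any of these gates. The intervals of the share of cells with a Fos UMI at equal depth, given below, were apart in the epicardial gate alone among them. In the Tcf21 gate the log2 ratio of Fos turned from -1.28 to 0.15 with doubled marker thresholds and to 0.21 with the cells of both mesenchymal gates counted in. Jun followed the same order of directions. It stood at 258 and 127 in epicardial cells, 231 and 89.1 in Tcf21 mesenchymal cells, 109 and 238 in cushion cells, 236 and 476 in endothelial cells, and 314 and 197 in macrophages. In the Tcf21 gate it too turned, from -1.28 to 0.061 and 0.23 under the same changes.

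Jund, the Jun protein that is made without a stimulus, differed between libraries in some gates more than in others. It stood at 859 in the control and 420 in the mutant in epicardial cells, at 507 and 734 in cushion cells, and at nearly the same level in endothelial cells (852 and 865), macrophages (407 and 389) and cardiomyocytes (557 and 541). Atf3, a stress-induced factor that dimerises with Jun, had the lowest log2 ratio of the measured epicardial members, -1.54, at 385 and 126 CPM, a plain ratio of 0.327 (0.274 to 0.391). It was most abundant in macrophages, with 1822 and 1090. In cushion cells it stood at 151 and 253, and in Tcf21 mesenchymal cells at 68.5 and 62.7, where the intervals overlapped. Fosb, another Fos protein, was rarer. It stood at 8.02 and 39.99 in endothelial cells, from 9 and 66 UMIs, and at 27.1 and 3.30 in Tcf21 mesenchymal cells, from 17 and 4 UMIs. Junb stood at 286 and 89.0 in macrophages.

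**Figure D3:**
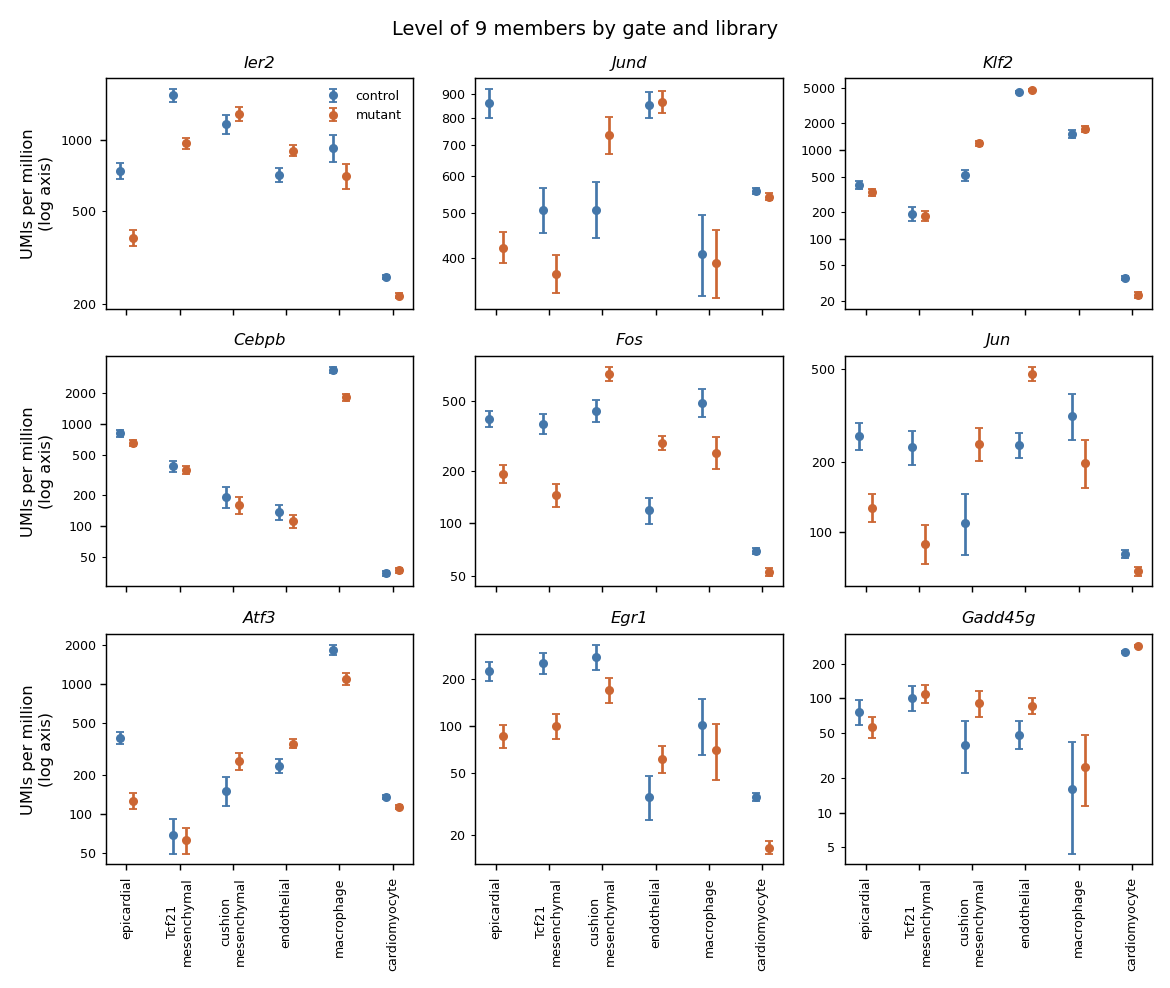
Level of 9 members in CPM (vertical log axis, its range set for each gene) by gate (horizontal axis), control in blue and mutant in orange. Points are the levels over all UMIs of a gate in 1 library, and bars are exact 95% Poisson intervals, which cover counting error only. Fos and Jun lie lower in the mutant in epicardial and Tcf21 mesenchymal cells and higher in cushion and endothelial cells, and Gadd45g is highest in cardiomyocytes in both libraries.

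Among the zinc finger factors, Egr1 and the measured Klf genes had log2 ratios below 0 in epicardial cells and above 0 in endothelial cells, but parted in cushion cells. Egr1, a direct target of the ERK kinases, was lower in the mutant in epicardial cells (225 and 85.6 CPM), Tcf21 mesenchymal cells (253 and 99.9), cushion cells (277 and 170) and cardiomyocytes (35.1 and 16.5, from 1139 and 451 UMIs). It was higher in endothelial cells (34.8 and 61.2). In cushion cells Egr1 was thus lower while Fos, Jun, Klf2, Klf4 and Klf6 were higher. Egr2 was measured in cushion cells alone, with 26.7 and 6.22, from 11 and 4 UMIs.

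Klf2 (ENSMUSG00000055148; chromosome 8, 72319033 to 72321656) was most abundant in endothelial cells, at 4458 in the control and 4758 in the mutant, with a ratio of 1.07 (1.03 to 1.11). It gave 5002 and 7853 of the members' UMIs there, more than any other member. Without it the log2 ratio of the summed endothelial share was 0.35 in place of 0.22. In cushion cells Klf2 was higher in the mutant, at 517 and 1182, with a ratio of 2.29 (1.96 to 2.67). In macrophages it stood at 1524 and 1715, one of 4 of the 34 measured members above 0 there (3048 of 5923 over all genes). Klf4, a related factor, was higher in cushion cells (17.0 and 87.1, from 7 and 56 UMIs) and endothelial cells (51.7 and 135) and lower in epicardial cells (94.5 and 37.1). Klf6 stood at 214 and 465 in cushion cells. The other members of the group, Klf10 and Egr3, stayed below 50 CPM in each gate.

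Ier2, a nuclear immediate early protein, was the leading member of both mesenchymal gates. It stood at 1560 in the control and 970.5 in the mutant in Tcf21 cells, at 1170 and 1303 in cushion cells, and at 739 and 383 in epicardial cells, where the ratio was 0.518 (0.463 to 0.579). In endothelial cells it stood at 713 and 905. Without Ier2 the log2 ratio of the summed share was -0.35 in Tcf21 cells and 0.57 in cushion cells. Ier3, a survival protein, differed by more than 1.5-fold in macrophages alone, with 367 and 147. Ier5 rested on few UMIs: in the Tcf21 gate it stood at 3.18 and 20.6, from 2 and 25.

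Of the other transcription factors, Cebpb was abundant in epicardial cells and macrophages. Cebpb (ENSMUSG00000056501; chromosome 2, 167688915 to 167690418) encodes a factor of the inflammatory response and of macrophage differentiation. In macrophages it stood at 3341 CPM in the control and 1799 in the mutant, with a ratio of 0.538 (0.485 to 0.597). In epicardial cells it stood at 803 and 645, with a ratio of 0.804 (0.730 to 0.885), short of 1.5-fold, and it was the leading member of the mutant epicardial gate. Nr4a1, an orphan nuclear receptor, was lower in macrophages (157 and 30.6, from 39 and 11 UMIs) and in epicardial cells (45.6 and 16.4). Cebpd, Myc and Csrnp1 differed by less than 1.5-fold, with 10 CPM added to both levels, in each gate where they were measured. Without that addition Csrnp1 in epicardial cells had a ratio of 0.522 (14.4 and 7.55 CPM) and Myc in Tcf21 cells 1.73 (9.55 and 16.5 CPM).

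The feedback inhibitors, most of which turn the response off, were Dusp1, Dusp2, Dusp6, Zfp36, Zfp36l1, Nfkbia, Nfkbiz and Socs3. Their summed ratio was 0.495 (0.416 to 0.587) in macrophages and 0.724 (0.628 to 0.834) in epicardial cells. In macrophages all 8 had a log2 ratio below 0, as had 2875 of all 5923 genes measured there. In the Tcf21, cushion and endothelial gates the interval of their sum reached across 1. Dusp1, a phosphatase that inactivates stress kinases, was lower in epicardial cells (74.5 and 39.6) and macrophages (149 and 66.7) and higher in cushion cells (51.0 and 106). Nfkbia, the inhibitor that holds NF-kappa-B in the cytoplasm, had the highest ratio of the named members in the Tcf21 gate, at 17.5 and 85.0, from 11 and 103 UMIs, with a ratio of 4.85 (2.60 to 10.0). It kept that direction past 1.5-fold under the 10 alternatives tried, the sole member of this gate to do so. In macrophages it was lower, at 508 and 242. Zfp36 and Zfp36l1, which bind AU-rich messages and speed their decay, were not alike. Zfp36 was lower in epicardial cells (41.1 and 17.6) and stood at 149 and 136 in macrophages, where Zfp36l1 had 189 and 69.5. Socs3, an inhibitor of cytokine signals, had 6 UMIs in control macrophages and 0 in mutant ones, at least 2.9-fold lower when 0 is read as up to 3 UMIs in the library.

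Members tied to growth arrest, survival and adhesion had the lowest summed ratio of any role group in macrophages, 0.432 (0.341 to 0.546). Btg2, an antiproliferative protein, stood at 185 and 30.6 there, from 46 and 11 UMIs. It was also lower in epicardial cells (67.8 and 33.3) and in Tcf21 cells (70.1 and 25.6). In endothelial cells it stood at 57.0 in both libraries. Gadd45g, a growth arrest protein, was highest in cardiomyocytes in both libraries, with 255 and 287. It was higher in the mutant in cushion cells (38.8 and 90.2) and endothelial cells (48.1 and 86.0). Cyr61, a secreted matrix protein also called Ccn1, was lower in epicardial cells (148 and 93.8), and stood at 134 and 190 in cushion cells. Rhob, a small GTPase, was higher in cushion cells (87.4 and 138) and lower in macrophages (177 and 80.6). Mcl1, an inhibitor of cell death, stayed within 1.5-fold in all 6 gates.

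**Figure D4:**
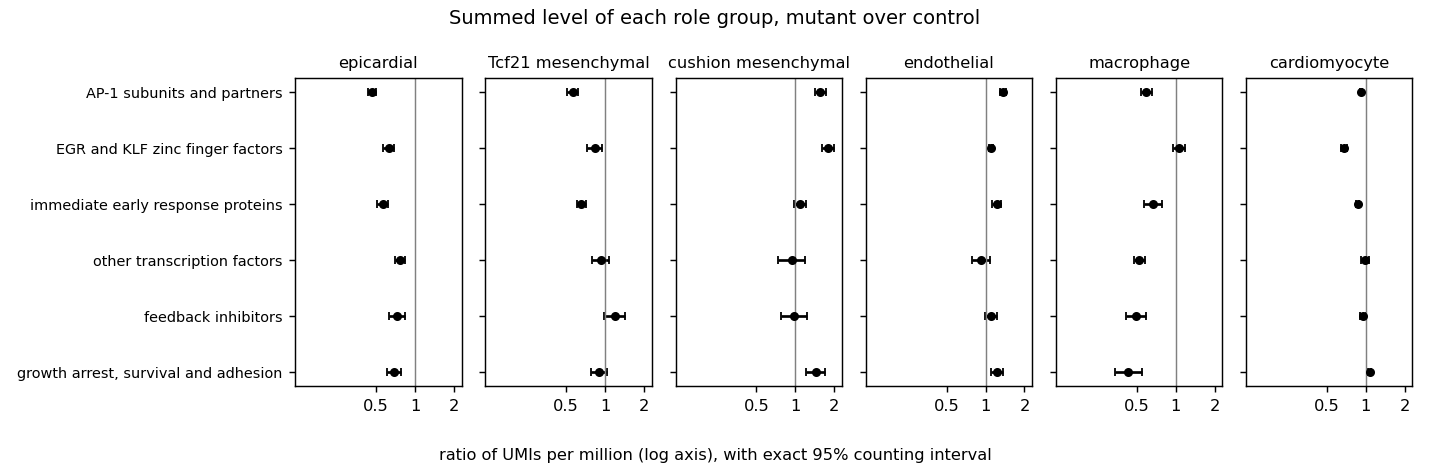
Ratio of mutant over control for the summed CPM of each of 6 role groups (rows), 1 panel per gate, on a log axis with the line at 1. Bars are exact 95% intervals for counting error. In epicardial cells all 6 groups lie below 1, from 0.468 for AP-1 subunits and partners to 0.766 for other transcription factors, while in cushion cells the AP-1 group (1.56) and the EGR and KLF group (1.79) lie above 1 and the feedback inhibitors at 0.978.

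The gate in which a member was highest differed between libraries for most of them. In the control 25 of the 40 were highest in macrophages, and 4 in cushion cells. In the mutant 11 were highest in macrophages, 14 in cushion cells and 10 in endothelial cells. The top gate was the same in both libraries for 15 members. All 40 were counted, also Fosl1, Egr3 and Nr4a2, which were measured in no gate. The same count was not made over all genes, so whether the shift is particular to the members was not tested. Macrophages had 70 cells in each library, and neighbouring levels often overlapped in their intervals. Levels were not scaled by gene length because 1 UMI stands for 1 captured 3' end. Whether different members were captured equally well was not tested.

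Members were next counted per cell after each cell was thinned to 1000 UMIs, so that depth did not enter. All kept cells reached that number. Epicardial cells held 3.25 different members on average in the control and 2.40 in the mutant, and 21.8% and 10.9% of them held 5 or more. Cushion cells held 3.13 and 3.88, with 25% and 34.5% at 5 or more. Macrophages held 6.5 and 5, Tcf21 mesenchymal cells 2.81 and 2.57, endothelial cells 2.86 and 3.24 and cardiomyocytes 1.39 and 1.29. Without thinning the averages were higher, for example 6.77 and 5.63 in epicardial cells.

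A Fos UMI was found in 51 of 257 thinned epicardial cells of the control (19.8%, 15.2% to 25.3%) and in 51 of 440 of the mutant (11.6%, 8.75% to 14.96%). In erythroid cells, with a median of 12723 and 7841 UMIs before thinning, the shares were 3.91% and 2.74%. The cardiomyocyte markers took 2.83 and 3.05 of 10000 UMIs in erythroid cells, against 410 in control barcodes of at most 100 UMIs. How much of the erythroid shares came from free RNA was not tested. Without thinning, the epicardial shares were 41.6% and 27.5%, and the erythroid ones 10.1% and 15.8%. In cushion cells 26.5% (20.5% to 33.2%) of control and 34.5% (28.9% to 40.5%) of mutant cells had a Fos UMI, and these intervals overlapped. Klf2 was found in 24.5% (18.7% to 31.1%) and 46.9% (40.9% to 53.0%) of cushion cells, against 2.79% and 6.69% of erythroid cells. Cebpb was found in 54.9% and 51.8% of epicardial cells, and Ier2 in 42.4% and 31.8%.

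Cells with a Fos UMI also held more of other members in several gates. In endothelial cells Jun stood at 412 CPM in the 17 control cells with a Fos UMI and at 79.6 in the 201 without, with a ratio of 5.17 (1.80 to 13.3), and the mutant ratio was 4.32 (2.63 to 6.96). Klf2 was also higher in endothelial cells with Fos, by 2.17 (1.83 to 2.58) in the control and 1.91 (1.66 to 2.19) in the mutant. Ier2 was higher in Tcf21 mesenchymal cells with Fos by 1.98 (1.62 to 2.42) and 1.99 (1.61 to 2.46), and in cushion cells by 1.81 (1.38 to 2.37) and 1.96 (1.61 to 2.39). Of the 11 members compared in epicardial cells, the interval lay above 1 in the control for Egr1, at 2.02 (1.03 to 3.79), Btg2, at 4.04 (1.21 to 13.5), and Klf6, at 2.24 (1.11 to 4.37), and in the mutant for Ier2, at 1.63 (1.11 to 2.35). The other epicardial intervals reached across 1. In control macrophages Jun was higher in cells with Fos, by 5.75 (2.04 to 19.9), but Egr1 was lower, at 0.141 (0.0033 to 0.953). In mutant macrophages Egr1 was higher, at 6.71 (1.1 to 70.5). Cebpb had macrophage ratios of 0.987 in the control and 0.974 in the mutant. Cells of 1 library are not replicates, so these ratios describe these 2 libraries.

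**Figure D5:**
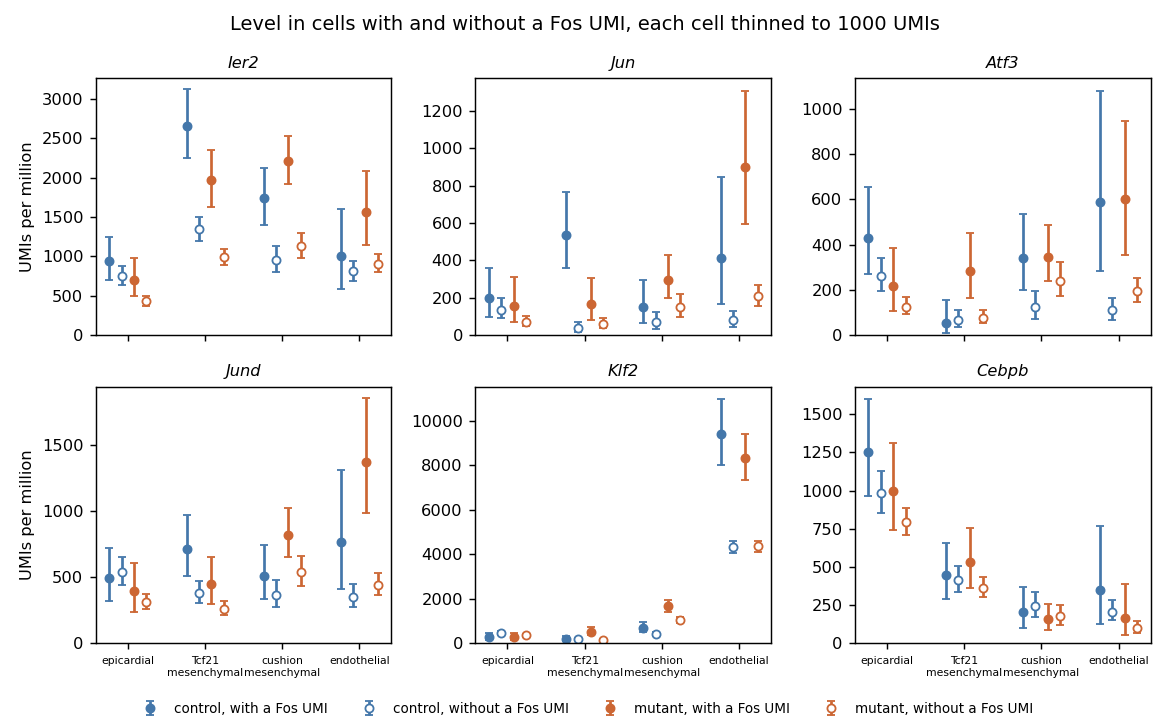
Level of 6 members in CPM (vertical axis) in cells with a Fos UMI (filled) and without (open), by gate, after thinning each cell to 1000 UMIs, control in blue and mutant in orange. Bars are exact 95% Poisson intervals. Klf2 in endothelial cells and Ier2 in both mesenchymal gates lie higher in cells with Fos in both libraries, while Cebpb overlaps throughout.

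Other genes of the same responses, none of them members, were counted by the same rule. Of 30 serum, growth factor and stress response genes, 4 of 15 measured were lower and 0 higher in epicardial cells (5.43% and 1.83% of all genes). They were Ctgf (62.3 and 28.9 CPM), a matrix protein related to Cyr61, Thbs1 (43.4 and 11.3), which encodes thrombospondin, the kinase Plk2 (55.6 and 19.5) and the growth factor Hbegf (32.2 and 8.81). In macrophages 7 of 15 were lower and 0 higher (14.5% and 16.3% of all genes). In cushion cells 5 of 16 were higher and 1 lower (7.58% and 10.1% of all genes), with Ctgf at 89.8 and 159 and Plk2 at 53.4 and 114. In endothelial cells 4 of 14 were higher and 0 lower (6.18% and 1.44% of all genes), with Hbegf at 91.8 and 192, and in Tcf21 cells 2 of 13 were higher and 0 lower (7.48% and 3.58%).

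Of 16 kinases and factors upstream of the members, 0 of 13 measured passed 1.5-fold in epicardial cells, with a median log2 ratio of -0.11, where 5.43% of all genes were lower and 1.83% higher. In endothelial cells 4 of 14 were higher (6.18% of all genes) and 0 lower, namely Map2k1, Crem, Mapk9 and Rela, with a median of 0.41. In Tcf21 cells 2 of 12 were higher (7.48% of all genes) and 0 lower, in cushion cells 2 of 11 were higher (7.58%) and 0 lower, and in macrophages 1 of 10 was higher (16.3%) and 1 lower (14.5%). Of 12 heat shock genes, the inducible chaperone Hspa1a differed in several gates, though its counts are uncertain because Hspa1b is a near-identical copy. It stood at 24.5 and 10.1 in epicardial cells, at 2.43 and 59.1 in cushion cells, from 1 and 38 UMIs, and at 11.6 and 99.4 in endothelial cells. Macrophages had 5 of 10 measured heat shock genes higher in the mutant and 1 lower (16.3% and 14.5% of all genes), with Hspd1 at 258 and 492, while 21 of the 34 measured members were lower there. In cushion cells 4 of 11 were higher and 0 lower (7.58% and 10.1% of all genes). All 11 had a log2 ratio above 0 there, as had 3164 of all 6508 genes measured. In endothelial cells 2 of 12 were higher and 0 lower (6.18% and 1.44% of all genes). In Tcf21 cells 0 of 8 passed 1.5-fold. In cardiomyocytes none of the measured genes on the 3 lists passed 1.5-fold.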

How the data were processed

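Values were whole-number counts of UMIs per gene and barcode, deposited by the authors, who used Cell Ranger 3.0.2 (per the file headers). Seurat is also named in the submitters' processing notes, without a version. The sources used here do not give the genome build, any cell sort or the number of embryos behind a library. The labels name a v2 droplet kit, but the control lists 6794880 barcodes, the size of a later kit's list, so the chemistry is uncertain. The control matrix was unfiltered (542175 barcodes with a UMI). The mutant matrix held 7181 barcodes of at least 500 UMIs. Total depth was 49323576 and 48527471 UMIs. Of the gene identifiers 99.9% were in GENCODE M21 (GRCm38).

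Cells needed 1000 UMIs, 500 genes and at most 20% mitochondrial UMIs. A gate needed marker UMIs per 10000 and distinct markers as follows: epicardial 10 and 2, Tcf21 mesenchymal 20 and 2 with a Tcf21 UMI and none of Krt7, Krt8, Krt18, Krt19, Upk1b or Upk3b, cushion 20 and 2 without Tcf21, endothelial 10 and 2, macrophage 30 and 3, cardiomyocyte 100 and 7, and erythroid 500 and 3. These thresholds were set with the data at hand. Cells of several gates (219 and 259), which may include doublets, were left out, as were cells of none (458 and 619) and of both mesenchymal gates (155 and 335). No doublet caller was run. The members, lists and rules were chosen with earlier results of these data known.

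UMIs were summed per gate and library and divided by the gate's total. Shares have Clopper-Pearson, levels Poisson and ratios conditional binomial intervals, all exact, at 95%. Members were named with values at 50 CPM in 1 library and 30 UMIs over both. Rarer members past 1.5-fold, and the related genes given with values, were picked once their values had been seen. Windows and motifs come from RefSeq promoter tables. The ratio computation was tested on simulated data. Alternatives covered cell filters, gate thresholds, equal weight per cell, depth, pseudocount, level minimum, denominator and the leading member. Python 3.11.15, numpy 2.4.6, scipy 1.17.1, pandas 2.3.3 and matplotlib 3.10.9 were used.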

Additional observations from a re-analysis of the deposited data

Results flagged for a closer look

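The summed share of the 40 members had opposite directions in different gates of the same 2 libraries. Its log2 ratio of mutant over control was -0.75 in epicardial cells, -0.64 in macrophages, -0.45 in Tcf21 mesenchymal cells and -0.11 in cardiomyocytes, against 0.48 in cushion mesenchymal cells and 0.22 in endothelial cells. With 1 library per genotype the difference between gates was not tested. The cells of all gates of a library went through 1 dissociation and 1 capture as far as the labels say, and the part of handling in these differences was not tested.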

How the results depend on the processing

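No paired analysis was possible because there was 1 library per genotype. The log2 ratio of the summed share kept its sign under every alternative tried in the epicardial, cushion, endothelial, macrophage and cardiomyocyte gates. In Tcf21 mesenchymal cells (-0.45) it turned to 0.08 with doubled gate thresholds and 0.17 with cells of both mesenchymal gates counted, and was -0.25 with equal weight per cell, -0.24 in cells with at most 5000 UMIs and -0.35 without Ier2. In other gates, with equal weight per cell it was -0.58 in epicardial cells, 0.16 in endothelial cells and -0.43 in macrophages. In cells with at most 5000 UMIs it was -0.58 in epicardial cells, 0.39 in cushion cells, 0.29 in endothelial cells, -0.18 in macrophages and -0.056 in cardiomyocytes. Without the leading member it was -0.83 (epicardial), 0.57 (cushion), 0.35 (endothelial), -0.56 (macrophage) and -0.13 (cardiomyocyte). In the epicardial gate the member left out was Cebpb, the leader of the mutant, while Jund, the leader of the control, stayed in. Doubled thresholds gave 0.65 in cushion and 0.26 in endothelial cells, a limit of 10% mitochondrial UMIs 0.15 in endothelial cells, and the added cells of both mesenchymal gates 0.60 in cushion cells.

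Counts of members past 1.5-fold moved in places. They are given without the share of all genes under the same alternative, so whether a move is particular to the members was not tested. In the Tcf21 gate the 2 higher members became 8 with the cells of both gates, 11 with doubled thresholds, 5 with fewer cardiomyocyte markers allowed and 4 with a pseudocount of 1. The 10 lower ones became 1 with the cells of both gates or doubled thresholds, 6 with equal weight and 3 in shallow cells (at most 5000 UMIs). In cushion cells the 5 lower members became 1 with doubled thresholds or with the cells of both gates, 2 with equal weight and 3 in shallow cells. In macrophages the 0 higher members became 2 with equal weight or a pseudocount of 1, 4 in shallow cells and 1 without a level minimum. In endothelial cells the 0 lower members became 2 with equal weight, 3 in shallow cells and 1 with a pseudocount of 1. In cardiomyocytes the 0 higher and 1 lower became 1 and 2, both in shallow cells and with a pseudocount of 1. Members called past 1.5-fold under every alternative numbered 9 of 16 lower in epicardial cells, 14 of 21 lower in macrophages, 6 of 10 higher in cushion cells and 6 of 7 higher in endothelial cells, but 0 of 10 lower in Tcf21 cells and 0 of 5 lower in cushion cells.

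Single members turned sign as follows. Gadd45b in epicardial cells had 0.025 in shallow cells. In the Tcf21 gate, with doubled thresholds and with the cells of both gates, Fos had 0.15 and 0.21, Jun 0.061 and 0.23, and Cyr61 0.22 and 0.044. Zfp36l1 in cushion cells had 0.036 with doubled thresholds. The difference in the share of cells with a UMI, without thinning, was -2.52 percentage points for Gadd45b in epicardial cells, 0.68 for Jun in Tcf21 cells and 2.86 for Cebpb in macrophages. The cause of these changes was not tested. The added alternatives (cells of both mesenchymal gates, fewer cardiomyocyte markers) were chosen after seeing the data. Depth limits members under 50 CPM and the 70 macrophages of each library.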

Other observations

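Cells that met both mesenchymal gates, left out of the comparisons, numbered 155 in the control and 335 in the mutant, with a median of 2037 and 2056 UMIs. Members took 0.470% of their UMIs in the control and 0.753% in the mutant. Their control share lay next to those of the Tcf21 gate (0.476%) and the cushion gate (0.484%), while their mutant share was above both (0.348% and 0.675%).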
